A study of Homo sapiens with 7 samples.

Results

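The genes described here lie on the long arm of chromosome 1 (1q), the arm that holds ASH1L. They are 58 genes chosen by name, of which 57 are among the 13142 genes of the expression table and 55 passed the filter on low values. RNF2P1 was not analysed here. MUC1 and RAB7B are in the table and did not pass. The list was drawn up with the shift of this arm in each clone in view, so the shift itself and the counts of members below or above wild type are given as a description. Calls from fits across all genes use the same values, and no support is drawn from them. In total 475 tested genes lie on 1q, and the 420 that are no members are set beside the members.

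RNA-seq was run on BHT-101, a human anaplastic thyroid cancer cell line, and on 4 clones of it in which ASH1L, a Trithorax-group enzyme that methylates histone H3 lysine 36, is cut short. Clone KO1 carries a stop codon after residue 413 on both alleles, KO2 after residue 610 on both, KO3 after residue 2129 on both, and KO4 after residues 2169 and 2174. Each clone gave 1 library, and 3 biological replicates of wild-type (WT) cells gave WT1, WT2 and WT3. No clone with intact ASH1L was analysed here, so loss of ASH1L and other differences between a clone and its parent line cannot be told apart. Levels are given as log2 RPKM (reads scaled for gene length and library depth), and differences are in log2 units from the mean of the 3 WT samples.

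The long arm of chromosome 1 is a gene-dense arm with a large pericentromeric block of repeats, and its gain is among the frequent arm-level changes of carcinomas. Its proximal part carries the S100 gene cluster and the epidermal differentiation genes, and farther out lie genes of apoptosis control, p53 regulation and the complement regulator cluster. When a whole arm is present in more or fewer copies, transcripts of its genes tend to shift together, while single genes can still be set apart by their own regulation. Gene copy number was not measured here.

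The labelled cell type was examined through marker genes. All 5 epithelial markers were in the table, and their summed level was 233 to 576 RPKM in the clones and 487 to 583 RPKM in WT. CDH1, the epithelial cadherin, was at -5.86, 1.96, -2.20 and -2.83 log2 RPKM in KO1 to KO4, against 0.75, 0.78 and 0.48 in WT1 to WT3. Of 7 thyroid markers only the transcription factor gene PAX8 was in the table, at 0.0309 to 0.437 RPKM in the clones and 0.128 to 0.213 RPKM in WT. Leukocyte markers (2 of 7 in the table) summed to 0.479 to 2.99 RPKM in the clones and 9.09 to 11.9 RPKM in WT, and CD3D, a T cell receptor subunit, was at most -0.47 log2 RPKM in the clones and at least 3.05 in WT. Fibroblast and endothelial markers (3 of 8) summed to 20.4 to 65.0 RPKM in the clones and 41.4 to 46.0 RPKM in WT. The part of these differences in the results below was not tested.

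Promoter sequences are shown for the members that set themselves farthest apart from the arm in KO1 under the rule for named genes, BTG2 and SOAT1 below it and ABL2 and PEA15 above it. Each is the window from 250 bases before to 50 bases after the RefSeq start site on build GRCh38.p14, written 5′ to 3′ on the strand of the gene. Capitals mark matches, on either strand, to TATAAA (the TATA box), CCAAT (the CCAAT box) and GGGCGG (the GC box). BTG2 lies at chr1:203305269-203305568 (plus strand), SOAT1 at chr1:179293547-179293846 (plus), ABL2 at chr1:179143027-179143326 (minus) and PEA15 at chr1:160205134-160205433 (plus).
BTG2: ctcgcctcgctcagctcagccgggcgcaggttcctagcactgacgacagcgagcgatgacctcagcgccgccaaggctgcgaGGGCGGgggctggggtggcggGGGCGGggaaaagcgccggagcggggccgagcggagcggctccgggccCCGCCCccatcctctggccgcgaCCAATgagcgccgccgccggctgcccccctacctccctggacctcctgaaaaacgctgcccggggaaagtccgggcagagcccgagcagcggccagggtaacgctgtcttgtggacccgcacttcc
SOAT1: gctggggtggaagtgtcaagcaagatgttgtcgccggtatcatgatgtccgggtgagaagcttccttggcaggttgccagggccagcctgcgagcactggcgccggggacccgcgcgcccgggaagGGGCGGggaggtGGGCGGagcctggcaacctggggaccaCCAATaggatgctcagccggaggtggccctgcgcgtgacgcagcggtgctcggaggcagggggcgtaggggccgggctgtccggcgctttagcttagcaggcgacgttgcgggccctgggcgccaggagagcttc
ABL2: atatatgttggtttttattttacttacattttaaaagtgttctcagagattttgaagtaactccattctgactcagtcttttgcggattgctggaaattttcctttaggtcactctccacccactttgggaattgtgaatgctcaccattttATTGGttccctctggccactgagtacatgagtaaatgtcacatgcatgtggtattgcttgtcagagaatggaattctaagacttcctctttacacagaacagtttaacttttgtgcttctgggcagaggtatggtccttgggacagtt
PEA15: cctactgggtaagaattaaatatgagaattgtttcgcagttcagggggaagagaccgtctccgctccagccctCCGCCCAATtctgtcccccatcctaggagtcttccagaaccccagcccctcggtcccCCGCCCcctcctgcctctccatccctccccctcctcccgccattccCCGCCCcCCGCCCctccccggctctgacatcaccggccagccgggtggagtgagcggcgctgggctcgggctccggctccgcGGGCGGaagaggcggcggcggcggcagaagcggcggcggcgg

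The BTG2 window held 3 GC boxes and 1 CCAAT box, and the SOAT1 window held 2 GC boxes and 1 CCAAT box. The PEA15 window, at 69.7% GC, held 5 GC boxes and 1 CCAAT box, and its CCAAT box overlaps the first GC box match. In the ABL2 window, at 39.0% GC, a CCAAT box on the opposite strand was the only match. The ABL2 window lies inside the gene as GENCODE release 29 places it (ENSG00000143322, 179099327 to 179229684), so it belongs to an internal start, and the start used in these cells is not known from gene-level values. Over the 53 members matched in the RefSeq promoter table (TROVE2 under its current symbol RO60), 4 held TATAAA, 19 held CCAAT and 35 held GGGCGG, or 7.55%, 35.8% and 66.0%. Over all 35116 promoters of the table the shares were 11.5%, 34.6% and 45.0%. The median GC content was 65.0% over the members and 58.7% over all promoters. These matches are a description of the letters in the windows.

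In KO1 the whole arm lay lower than in WT. The median difference of the 475 tested 1q genes was -0.63 in KO1, or 0.645 times the WT mean. KO2 stood at 0.12, KO3 at 0.10 and KO4 at -0.11. The same median was -0.01, 0.01 and 0.01 in WT1, WT2 and WT3, and over all 11154 tested genes it was between -0.02 and 0.00 in the clones. Among the tested members it was -0.63, 0.03, 0.12 and -0.10 in KO1 to KO4, and among the other 1q genes -0.63, 0.14, 0.10 and -0.11. The members therefore sat at the level of the rest of the arm in KO1, KO3 and KO4, and under it in KO2.

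The low level of KO1 began at the centromere. The 20 tested genes just before the centromere had a median difference of 0.17 in KO1, and the 20 just after it had one of -0.77. On the short arm the medians over 646 genes were 0.06, -0.01, 0.18 and 0.04 in KO1 to KO4. Every bin of 10 Mb on 1q was negative in KO1, from -0.95 at 190 to 200 Mb to -0.34 at 150 to 160 Mb. All WT bins of the chromosome lay between -0.11 and 0.08. In bulk RNA, fewer cells that express a gene and less of its RNA per cell cannot be told apart.

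**Figure D1:**
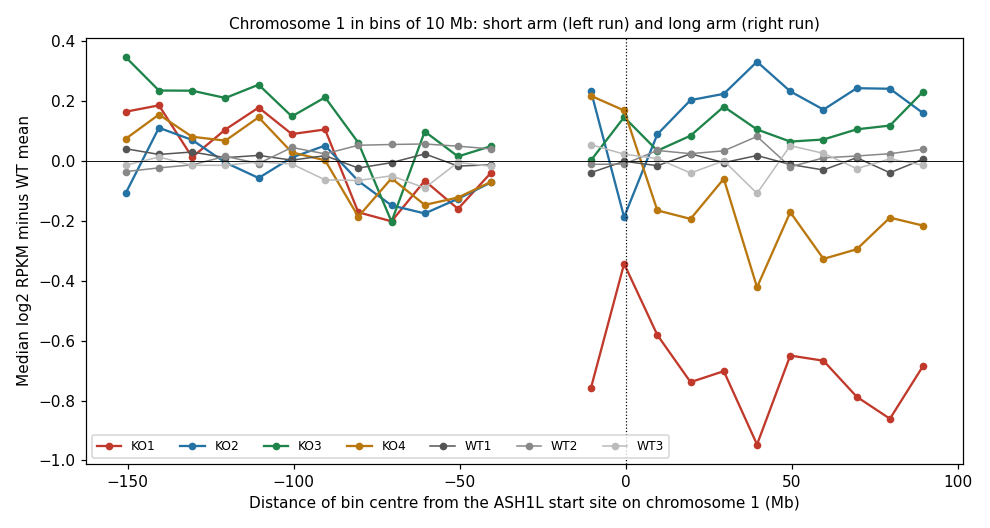
Median log2 RPKM minus the WT mean in bins of 10 Mb along chromosome 1 (y axis), against the distance of the bin centre from the ASH1L start site in Mb (x axis), with 1 line for each clone and each WT sample. KO1 is at -0.04 in the last bin of the short arm and at -0.76 in the first bin of the long arm, and is least low on the long arm in the bin that holds ASH1L, while the WT lines stay near 0.

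The bins around ASH1L differed from both sides in KO1 and KO2. KO4 was not set apart there from the proximal part of the arm. The stretch was taken as the run of 5 Mb bins around ASH1L with a KO2 median below 0, a rule chosen after the bins had been seen, so the low level of KO2 inside it is set by the rule. It ran from 150 to 165 Mb, and its 158 genes had medians of -0.38, -0.18, 0.14 and 0.12 in KO1 to KO4. Over the 292 genes beyond 165 Mb it was -0.77, 0.22, 0.09 and -0.22. The 25 genes between the centromere and 150 Mb stood at -0.76, 0.23, 0.00 and 0.22. By these medians KO1 was less low inside the stretch than on either side. KO2 was below WT inside it and above WT outside it. The KO4 medians were above WT in the proximal stretches and below WT beyond them. KO3 stood between 0.00 and 0.14 in the 3 stretches. The WT medians of the 3 stretches all lay between -0.04 and 0.05.

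The 20 genes on each side of an edge of the stretch were compared, in windows that spanned 0.98 to 4.09 Mb. The edges came from the rule for the stretch, so they need not be where the levels changed. At 150 Mb the median in KO1 was -0.73 before the edge and -0.26 after it, in KO2 it was 0.21 before and 0.02 after, and in KO4 it was 0.23 before and 0.31 after. At 165 Mb it was -0.42 before and -0.81 after in KO1, -0.05 before and 0.15 after in KO2, and -0.13 before and -0.29 after in KO4. The lowest level of KO2 lay farther inside the stretch, at -0.33 between 155 and 160 Mb. KO4 was already at -0.06 between 160 and 165 Mb, so its change of sign also lay inside the stretch. The genes of the stretch were also expressed at a higher level, with a median WT log2 RPKM of 4.16 against 2.88 beyond it. In KO2, where highly expressed genes of the whole genome lay lower (-0.14 for genes at a WT level of at least 4, 0.05 for the others), the stretch was at -0.29 for the high genes and 0.05 for the low ones. Beyond the stretch KO2 stood at 0.12 for the high genes and 0.23 for the low ones. In KO1 the high genes were at -0.41 inside and -0.86 beyond the stretch, and the low ones at -0.27 and -0.73. The part of expression level in the pattern of the stretches was not tested, and in KO2 the rule for the stretch fixed its direction.

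**Figure D2:**
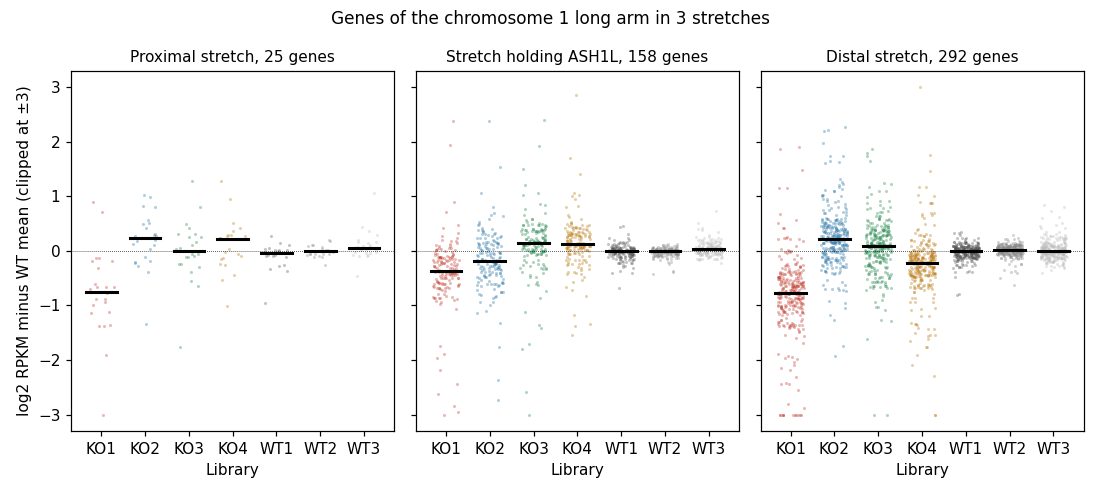
Log2 RPKM minus the WT mean (y axis, clipped at 3 log2 units either way) of the tested 1q genes in each library (x axis, KO1 to KO4 and then WT1 to WT3), in 3 panels for the genes before 150 Mb, from 150 to 165 Mb and beyond 165 Mb. Points stand for genes and black bars for their medians. The KO1 bars sit lowest outside the middle panel, and the KO2 bar is below 0 only in the middle panel. The range of that panel was chosen by the KO2 medians, so the rule fixed the direction of the KO2 bar there.

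Spearman correlations are given as a description, since the genes share their library. The difference in KO2 correlated with the WT level at -0.34 over the 475 1q genes and at -0.63 over the 55 tested members. In KO1 the values were -0.07 and 0.13. ASH1L itself was at 2.69, 2.54, 2.42 and 3.74 log2 RPKM in KO1 to KO4, against 3.34, 3.30 and 3.22 in WT1 to WT3. Relative to the median of the stretch it stood at -0.23, -0.56, -1.01 and 0.33, so its level in KO1 was near that of the genes around it and its level in KO3 was not.

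Among the 55 tested members, 47 lay below all 3 WT samples in KO1 and 2 above all 3. The shares were 41.8% and 41.4% over all tested genes, and 85.5% and 7.14% over the 420 other 1q genes. In KO2 20 members lay below (background 40.6%) and 24 above (39.2%). In KO3 16 lay below (42.4%) and 31 above (38.8%), and in KO4 27 below (39.8%) and 18 above (37.9%). KO1 was the lowest clone in 44 of the 55 members, against 27.6% of all tested genes and 78.8% of the other 1q genes. In 2 members all 4 clones lay below every WT sample (background 10.1%) and in 0 members above (8.88%). The 2 were PRDX6 and TRAF5, an adaptor of tumour necrosis factor receptors. TRAF5 was at -1.17, 0.21, 0.21 and -0.66 log2 RPKM in KO1 to KO4, against 0.88, 0.69 and 0.76 in WT1 to WT3.

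Fits across all genes were made for single clones with only the 3 WT samples to give the spread, so that their p-values are too small for clones that vary more. With limma at an adjusted p under 0.05, 38 members were called lower and 0 higher in KO1, where 25.0% and 19.2% of all tested genes were called. The median difference in KO1 was -0.63 over the tested members and over all tested 1q genes alike. In KO2 11 were lower (background 17.9%) and 11 higher (15.3%), in KO3 9 lower (19.8%) and 9 higher (14.2%), and in KO4 12 lower (14.5%) and 5 higher (10.2%). Leaving out 1 WT sample moved these counts and also the calls over all tested genes. In KO2, KO3 and KO4 both were lowest without WT2. When the 4 clones formed 1 group, limma called 0 members (background 0.412%). An unadjusted p under 0.05 was found for 2 of the 55 tested members and for 1753 of the 11154 tested genes. The 2 members were CD55, at 0.44 ± 0.17 (SE, adjusted p = 0.281), and TRAF5, at -1.13 ± 0.39 (SE, adjusted p = 0.230). Without KO2, RALGPS2 was the 1 member called (background 2.12%), at -0.97 ± 0.17 (SE, adjusted p = 0.0486).

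**Figure D3:**
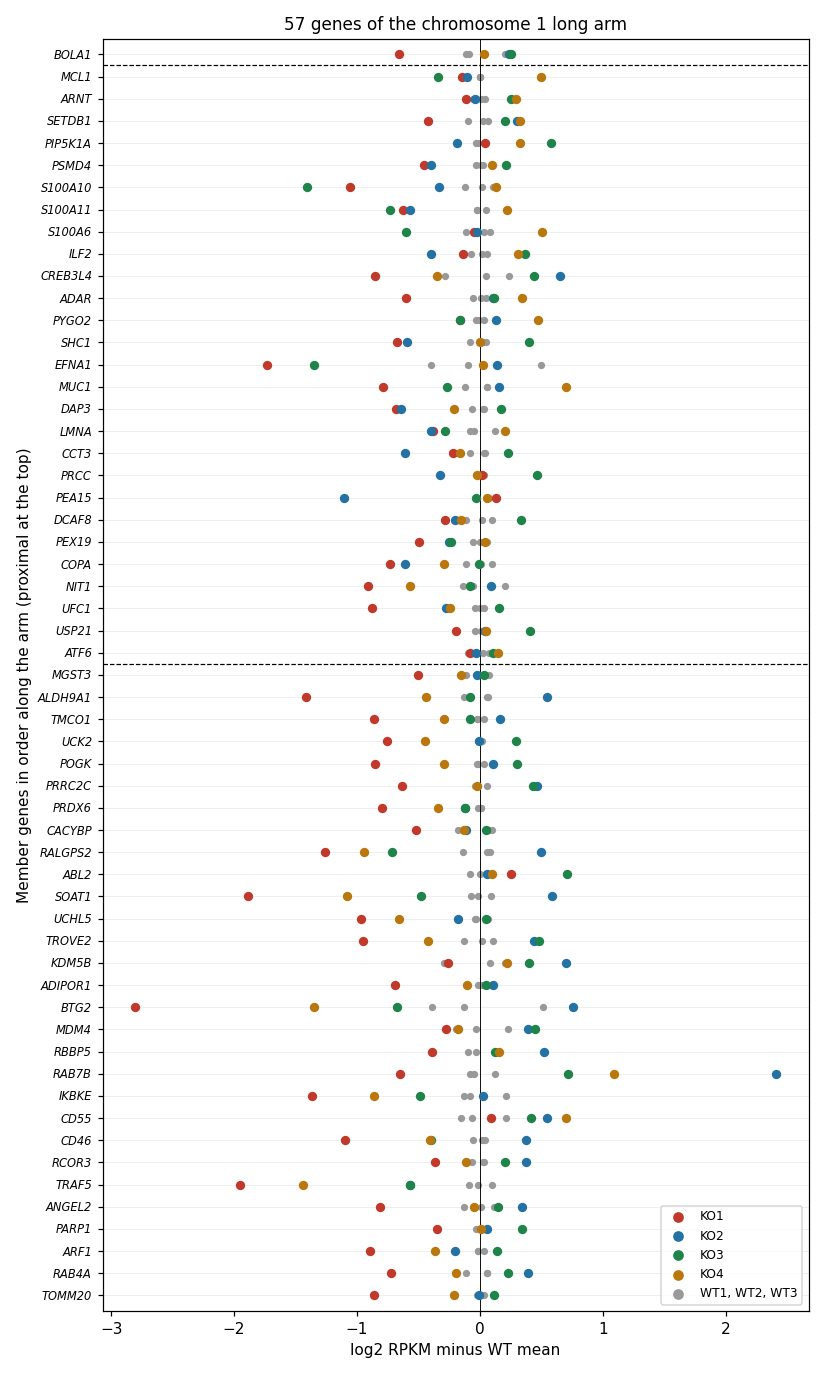
Log2 RPKM minus the WT mean (x axis) of the 57 members in their order along the arm from the centromere (y axis), with a coloured point for each clone and grey points for WT1, WT2 and WT3, and dashed lines at 150 and 165 Mb. The KO1 points lie left of 0 in 50 of the 55 tested members. The KO2 points lie left of 0 in 19 of the 26 tested members between 150 and 165 Mb and in 8 of the 28 beyond. The stretch from 150 to 165 Mb was itself chosen for its low KO2 medians.

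The members nearest the arm median in KO1 are examples of a shift of that size in single genes, but not all were level with the genes around them. Against the 1q genes within 5 Mb, PRRC2C stood at 0.16 in KO1. S100A11, BOLA1, ADAR and SHC1 stood at -0.26, -0.25, -0.24 and -0.34. PRRC2C, a stress granule protein, was the median gene of the arm in KO1. It was at 3.93, 5.02, 4.99 and 4.54 log2 RPKM in KO1 to KO4, against 4.62, 4.54 and 4.52 in WT1 to WT3. KO1 was the only clone below every WT sample there, while KO2 and KO3 were above all 3 WT samples. ADAR, which edits adenosine to inosine in double-stranded RNA, was at 5.29 in KO1 and at 6.0, 6.01 and 6.24 in KO2 to KO4, against 5.84, 5.94 and 5.90 in WT. BOLA1, a mitochondrial factor of iron-sulfur proteins, was at 1.98 in KO1 and at 2.87, 2.89 and 2.67 in KO2 to KO4, against 2.55, 2.53 and 2.84 in WT. SHC1, an adaptor that couples receptor tyrosine kinases to RAS, was at 5.62, 5.70, 6.69 and 6.30, against 6.35, 6.21 and 6.32 in WT. In SHC1 both KO1 and KO2 were low, and KO3 was above every WT sample.

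To see which members were set apart from the arm, the arm median of each library was subtracted from each difference. More than 0.5 log2 units from it lay 15 members in KO1 (7 below, 8 above), 13 in KO2 (10 and 3), 11 in KO3 (10 and 1) and 10 in KO4 (6 and 4). Of all tested genes, 35.6% lay as far from the genome-wide median in either direction and 21.2% as far below it in KO1. These shares were 27.5% and 14.0% in KO2, 28.0% and 16.1% in KO3, and 22.6% and 12.8% in KO4. In WT1 and WT2 there were 0, and in WT3 only BTG2, at 0.51, but each WT sample is part of the mean it is measured from. The members just inside and just outside this distance were ILF2 at 0.49 and ARNT at 0.52 in KO1, SOAT1 at 0.47 and PSMD4 at -0.52 in KO2, PIP5K1A at 0.48 and CD46 at -0.51 in KO3, and ADAR at 0.46 and UCHL5 at -0.54 in KO4. Set against the median of the 1q genes within 5 Mb in place of the arm, 13, 5, 10 and 8 members lay as far out. Of the 10 members below the arm in KO2, 9 lie between 150 and 165 Mb, where the rule for the stretch set KO2 low. In that stretch also lie 6 of the 8 members above the arm in KO1 and 3 of the 4 above it in KO4. It holds 26 of the 55 tested members.

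**Figure D4:**
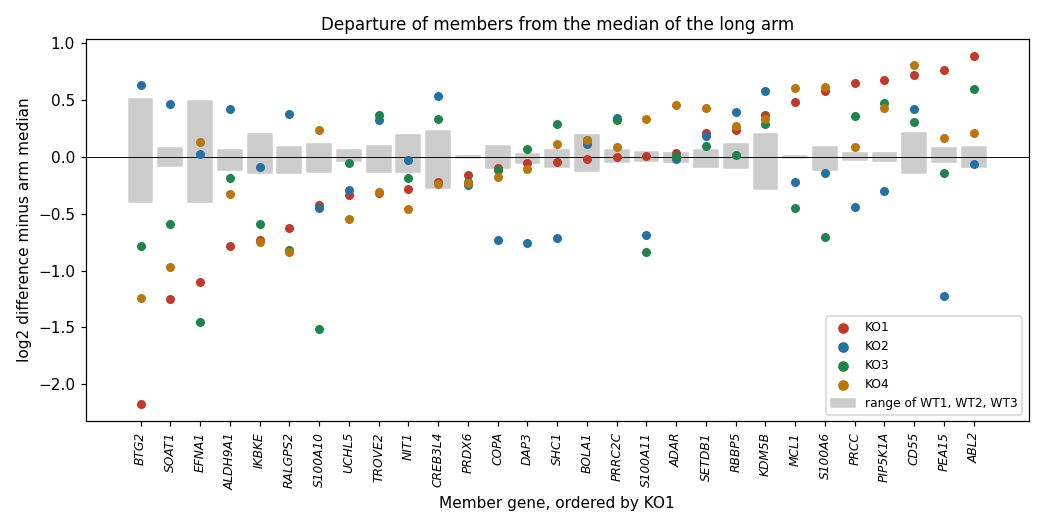
Difference from the WT mean minus the arm median of the same library, in log2 units (y axis), for the 29 named members ordered by KO1 (x axis). A point stands for each clone and a grey band for the range of the 3 WT samples. The other tested members, TRAF5 among them, are not drawn, and many of those drawn were named for their distance from the arm. BTG2 reaches -2.17 in KO1, the lowest value of all tested members, while most of the KO1 points drawn stay within 0.5 of the arm.

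The 5 named members farthest below the arm in KO1 were BTG2, SOAT1, EFNA1, ALDH9A1 and IKBKE. BTG2 (ENSG00000159388, 203305491 to 203309602, plus strand), an antiproliferative gene induced by p53, was at -0.83, 2.74, 1.31 and 0.63 log2 RPKM in KO1 to KO4, against 1.85, 1.59 and 2.5 in WT1 to WT3. KO1, KO3 and KO4 lay below every WT sample and KO2 lay above them, and KO1 was 0.143 times the WT mean. SOAT1 (ENSG00000057252, 179293714 to 179358680, plus strand), which esterifies cholesterol for storage, was at 2.04, 4.51, 3.44 and 2.84, against 3.91, 4.02 and 3.85 in WT. Its order over the clones was that of BTG2, with KO2 again above WT. TRAF5 stood between these genes in KO1, at -1.32 from the arm, but its level was under the minimum for named genes. EFNA1, an ephrin ligand of Eph receptors, was at 1.48, 3.36, 1.87 and 3.24, against 2.82, 3.12 and 3.72 in WT. Only KO1 and KO3 were low for EFNA1. IKBKE, a kinase of interferon and NF-kB signalling, was at 1.5, 2.89, 2.37 and 2.00, against 2.78, 2.73 and 3.07 in WT. RALGPS2, an exchange factor for RAL GTPases, was at 1.04, 2.80, 1.58 and 1.36, against 2.38, 2.36 and 2.17 in WT.

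BTG2, SOAT1, RALGPS2, IKBKE and TRAF5 were the 5 members more than 0.5 under the arm in each of KO1, KO3 and KO4. They were picked out after their values had been seen, and the 3 clones are set against the same WT samples. In KO1 they stood at -2.17, -1.25, -0.63, -0.73 and -1.32 from the arm, in KO3 at -0.78, -0.59, -0.82, -0.59 and -0.67, and in KO4 at -1.24, -0.97, -0.83, -0.75 and -1.32. In KO2 the values were 0.64, 0.47, 0.38, -0.09 and -0.69. All 5 lie beyond 165 Mb, spread over the distal arm.

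Among metabolic and protein-handling members, ALDH9A1, an aldehyde dehydrogenase of carnitine synthesis, was at 2.65, 4.60, 3.98 and 3.62 log2 RPKM in KO1 to KO4, against 3.94, 4.12 and 4.13 in WT. KO1 was 0.375 times the WT mean, and KO2 was above it. PRDX6, a peroxiredoxin with phospholipase activity, was at 6.45, 7.12, 7.12 and 6.90, against 7.22, 7.25 and 7.25 in WT. It stood at -0.16, -0.24, -0.22 and -0.23 from the arm in KO1 to KO4, and at 0.01, -0.39, -0.17 and -0.15 from the 1q genes within 5 Mb, so that the direction in KO1 turned. NIT1, an amidase that clears a side product of glutathione metabolism, was at 2.32, 3.32, 3.15 and 2.67, against 3.09, 3.17 and 3.44 in WT. UCHL5, a deubiquitinase of the proteasome, was at 3.11, 3.90, 4.13 and 3.42, against 4.04, 4.15 and 4.05 in WT. TROVE2, the Ro autoantigen that binds misfolded small RNAs, was at 1.02, 2.41, 2.45 and 1.54, against 1.99, 2.08 and 1.84 in WT. UCHL5 and TROVE2 are neighbours that start head to head and share exon bases, and without a stated strand their reads there cannot be told apart.

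The members farthest above the arm in KO1 stood from 0.02 (PRCC) to 0.25 (ABL2) above their WT mean there. ABL2 and PEA15 were above every WT sample in KO1. ABL2, a tyrosine kinase of the Abl family, was at 2.15, 1.95, 2.60 and 2.00 log2 RPKM in KO1 to KO4, against 1.97, 1.82 and 1.90 in WT. PEA15 (ENSG00000162734, 160205337 to 160215376, plus strand), a death-effector protein that binds ERK, was at 7.06, 5.82, 6.89 and 6.98, against 6.99, 6.89 and 6.89 in WT. KO2 had 0.465 times the WT level of PEA15, and the 3 other clones were within 0.13 of WT. CD55, the decay-accelerating factor that protects cells from complement, was at 3.35, 3.81, 3.68 and 3.96, against 3.11, 3.20 and 3.48 in WT. It stood above the arm in all 4 clones, by 0.72, 0.43, 0.31 and 0.81. PIP5K1A, a phosphatidylinositol phosphate kinase, was at 4.63, 4.40, 5.16 and 4.91, against 4.57, 4.63 and 4.55 in WT. PRCC, a nuclear protein known from a fusion gene of papillary kidney cancer, was at 4.51, 4.16, 4.95 and 4.46, against 4.52, 4.46 and 4.48 in WT. In PRCC and PEA15 KO2 was the lowest library of all 7. In KO1 PEA15, PIP5K1A and PRCC stood at 0.76, 0.68 and 0.65 from the arm, but at 0.51, 0.43 and 0.44 from the 1q genes within 5 Mb. From these neighbours ABL2 and CD55 stood at 0.997 and 0.73.

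Of the S100 genes, which encode calcium-binding proteins and lie in a cluster, 3 are members, and all 3 were below every WT sample in KO3 and above every one in KO4. S100A10, the annexin A2 partner, was at 7.44, 8.17, 7.09 and 8.63 log2 RPKM in KO1 to KO4, against 8.60, 8.52 and 8.37 in WT. S100A11 was at 9.55, 9.60, 9.44 and 10.39, against 10.15, 10.15 and 10.23 in WT. S100A6 was at 9.85, 9.87, 9.30 and 10.40, against 9.97, 9.93 and 9.79 in WT. KO3 was the lowest and KO4 the highest clone in all 3 genes, and S100A10 and S100A11 were low in KO1 too, at -1.06 and -0.63 from WT. Other S100 genes of the arm did not all go the same way. In KO3 S100A2 stood at 0.11, S100A16 at 0.09 and S100A14 at -0.06 from WT, and in KO4 S100A14 stood at -1.34, S100A3 at -0.43 and S100A2 at -0.38. Relative to the arm, KO3 stood at -1.51, -0.83 and -0.70 for S100A10, S100A11 and S100A6. Another gene near the cluster start, the anti-apoptotic MCL1, was at 6.45, 6.49, 6.26 and 7.10, against 6.60, 6.60 and 6.59 in WT, with KO3 lowest and KO4 highest as well.

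Genes of 3 histone-modifying proteins stood above the arm median in every clone, but RBBP5 by only 0.02 in KO3. This was within its range of -0.10 to 0.12 in the WT samples. Against the 1q genes within 5 Mb SETDB1 stood at -0.03 in KO1 and at 0.11 in KO4, where it was 0.44 above the arm median. KDM5B, a demethylase of histone H3 lysine 4, was at 1.40, 2.36, 2.06 and 1.88 log2 RPKM in KO1 to KO4, against 1.37, 1.74 and 1.87 in WT. SETDB1, a methyltransferase of histone H3 lysine 9, was at 2.81, 3.53, 3.43 and 3.55, against 3.14, 3.25 and 3.30 in WT. RBBP5, a core subunit of the MLL and SET1 methyltransferases, was at 2.79, 3.70, 3.30 and 3.34, against 3.15, 3.30 and 3.08 in WT. In SETDB1 and RBBP5 KO1 was under every WT sample. KO2, KO3 and KO4 were over every WT sample in SETDB1, and KO2 and KO4 were in RBBP5, where KO3 was level with the highest WT sample. In KDM5B KO1 lay within the WT range.

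With PEA15, DAP3 and COPA were the named members farthest below the arm in KO2. DAP3, a protein of the mitochondrial small ribosomal subunit, was at 5.29, 5.33, 6.14 and 5.76 log2 RPKM in KO1 to KO4, against 5.90, 6.0 and 6.01 in WT. COPA, the alpha subunit of the COPI coat, was at 5.71, 5.83, 6.43 and 6.15, against 6.33, 6.45 and 6.54 in WT. In both genes KO1 and KO2 were low by similar amounts, at -0.68 and -0.64 for DAP3 and -0.73 and -0.61 for COPA. CREB3L4, a membrane-bound transcription factor, was the opposite case within the stretch, at 1.72, 3.23, 3.01 and 2.23, against 2.29, 2.62 and 2.81 in WT. KO2 and KO3 were above every WT sample in CREB3L4. MUC1, an epithelial mucin that did not pass the filter, was at -1.46, -0.52, -0.94 and 0.04, against -0.61, -0.79 and -0.61 in WT. RAB7B, a lysosomal GTPase that did not pass either, was at -2.40, 0.66, -1.04 and -0.66, against -1.63, -1.83 and -1.80 in WT.

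The other 25 tested members were negative in KO1, which the choice of named members fixed, since the only tested members not negative there were the 5 named as farthest above the arm. Among genes of membrane traffic, ARF1, a GTPase of the Golgi, stood at -0.89 in KO1 and the recycling GTPase RAB4A at -0.73. UFC1, the conjugating enzyme of the ubiquitin-like UFM1, stood at -0.88, the deubiquitinase USP21 at -0.20 and CACYBP, a ubiquitin ligase adaptor, at -0.52. TMCO1, an endoplasmic reticulum calcium channel, stood at -0.86 and the adiponectin receptor ADIPOR1 at -0.69. MDM4, an inhibitor of p53, stood at -0.27, the DNA repair enzyme PARP1 at -0.35 and the double-stranded RNA protein ILF2 at -0.14. The range ran from CD46, a complement regulator, at -1.10 to ATF6, a sensor of endoplasmic reticulum stress, at -0.08. In KO2 the same 25 ranged from -0.61 (CCT3) to 0.39 (RAB4A), in KO3 from -0.40 (CD46) to 0.45 (MDM4) and in KO4 from -0.45 (UCK2) to 0.47 (PYGO2).

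Several members belong to complexes whose other subunits are encoded elsewhere, and 21 lists of complexes and families were used to set them side by side. The gamma-secretase list is among the 21 but holds only 1q genes that are no members, beside its genes elsewhere. The 48 list genes on 1q had a median difference of -0.62 in KO1, and 47 of them were negative. The 226 list genes off 1q had a median of 0.05, and 103 were negative. The median on 1q was under that off 1q in 19 of the 21 lists in KO1, and in 10, 7 and 11 of them in KO2, KO3 and KO4. The exceptions in KO1 were the S100 proteins, with S100P as the 1 gene elsewhere, and the endoplasmic reticulum stress transducers. The lists were made with results of these samples known and are not independent evidence of a direction.

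In the proteasome, PSMD4 (the ubiquitin receptor), PSMB4 and UCHL5 on 1q stood at -0.46, -0.33 and -0.97 in KO1. The 30 subunits elsewhere had a median of 0.20, close to PSMC4 at 0.20, PSMD8 at 0.19 and PSMA1 at 0.18, and 7 of them were negative. None of the 30 was lower than all 3 subunits on 1q, but PSMC2, at -0.67, was lower than PSMD4 and PSMB4. In the mitochondrial small ribosomal subunit, DAP3, MRPS14 and MRPS21 stood at -0.68, -0.71 and -0.31 in KO1. The 28 other proteins had a median of -0.03, and 14 of them were negative. Lower than every one on 1q were 3 of the 28, with MRPS33 lowest at -1.19. In the nuclear lamina list LMNA, encoding lamin A and C, and LBR stood at -0.38 and -1.35 in KO1, against a median of 0.25 over 8 genes elsewhere. TOMM20, an import receptor of the mitochondrial outer membrane, stood at -0.86 and TOMM40L at -0.20, against 0.09 over 6 genes.

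The COPI coat and the chaperonin differed less. COPA stood at -0.73 in KO1, and the 7 other COPI subunits had a median of -0.31. Of these, 6 were negative, and ARCN1 lay under COPA, at -0.96. The chaperonin subunit CCT3 stood at -0.22 in KO1, against -0.04 over the 7 other subunits, and at -0.61 in KO2, against -0.37. RBBP5 stood at -0.39 in KO1, against 0.09 over 10 genes of the same methyltransferases, and at 0.52 in KO2, against 0.10. In each of the lists described here the median on 1q was under that elsewhere in KO1, although single partners elsewhere lay lower in some. In KO2 the direction differed from complex to complex.

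**Figure D5:**
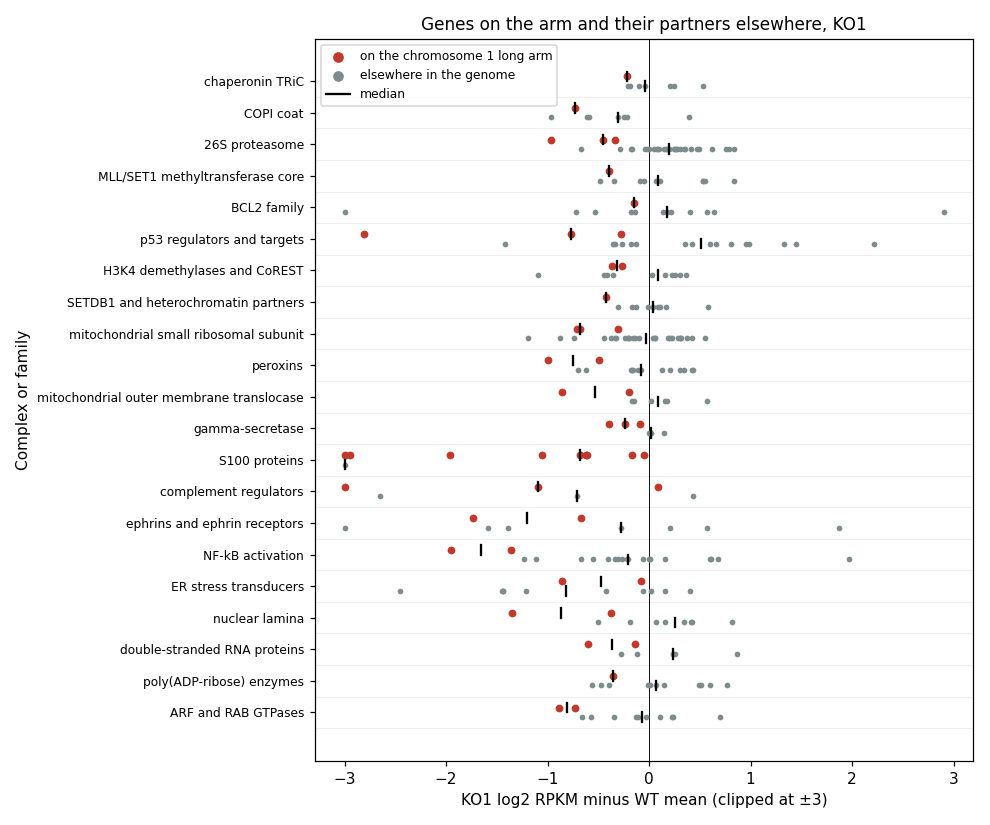
KO1 log2 RPKM minus the WT mean (x axis, clipped at 3 log2 units either way) of the genes of 21 lists (y axis), with red points for genes on 1q, grey points for genes elsewhere and black marks for the medians. The red medians lie left of the grey ones in 19 of the 21 lists.

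Some of these values rest on reads that could be shared. Of the 57 members, 26 have exon bases in common with another gene of GENCODE release 29, and in 1 of them, DCAF8, this covers over 20% of the exon bases (34.6%). Pseudogenes named after the member exist for 12 members, and the counting of reads that fit several copies is not given in the sources used.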

How the data were processed

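BHT-101 RNA was column-purified, treated with DNase and turned into TruSeq libraries, per the labels' protocols. The authors deposited 1 table of log2 RPKM for 13142 genes in 7 libraries. The submitters' processing notes name edgeR, HTSeq 0.11.2, STAR 2.5.3a and Trim Galore 0.4.1, and the build hg38. The annotation, the strand setting and the prior count are not given in the sources used here. No read totals stand in the table, so depth is unknown and no counting interval is given.

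Genes with log2 RPKM above 0 in at least 3 of 7 libraries were tested (11154 genes), with no pseudocount and no further scaling. limma 3.58.1 in R 4.3.3 (trended eBayes, Benjamini-Hochberg) compared KO with WT and each clone with the 3 WT samples; the procedure was tested on simulated data. The clone fits assume that a lone clone varies like the WT samples. GENCODE release 29 positions were matched by symbol or RefSeq synonym for 12534 genes (95.4%), 205 of them by synonym. The long arm was taken from 140 Mb and the short arm up to 125 Mb. Tables were made with Python 3.11.15, pandas 2.3.3 and numpy 2.4.6.

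The members and lists were chosen with earlier results of these data known. Some lists also hold 1q genes that are no members, and the gamma-secretase list holds no member. Members named with values in every library were the 5 farthest below, above and nearest the arm median in KO1, the 3 farthest each way in KO2, KO3 and KO4, and up to 5 on one side in all 4 clones, and a group mean of 1 log2 RPKM or more was required. TRAF5 and the 2 members that did not pass were added.

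WT replicates are biological replicates per the labels. Numbers on clones name clones, and the main fits pair nothing by them. Only the alternative fit with a replicate block used them. Alternatives covered the filter, scaling, log2(RPKM + 1), the variance trend, each left-out library and the median against the mean. Which gene copies the cells carry was not analysed here.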

Additional observations from a re-analysis of the deposited data

Results flagged for a closer look

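In 3 of 56 groups tested, 1 of the 4 clones lay far from the other clones by Dixon's ratio (the gap to the nearest clone over the whole range). Chance alone flags about 1 group in 20. SETDB1 was lowest in KO1, at 2.81 log2 RPKM against 3.53, 3.43 and 3.55 in KO2, KO3 and KO4, with a ratio of 0.839. S100A11 was highest in KO4, at 10.39 against 9.55, 9.60 and 9.44 in KO1, KO2 and KO3, with a ratio of 0.832. PEA15 was lowest in KO2, at 5.82 against 7.06, 6.89 and 6.98 in KO1, KO3 and KO4, with a ratio of 0.866.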

How the results depend on the processing

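The sign of the 1q median was the same under every alternative run in all 4 clones. In KO1 it was -0.63 as reported, -0.62 with no filter, -0.56 with libraries centred on their medians, -0.51 after quantile normalization, -0.53 on the log2(RPKM + 1) scale, -0.77 as a mean, and -0.64 to -0.63 without 1 WT sample. In KO2 it was 0.118 as reported, 0.136 with no filter, 0.057 for genes with a mean above 2, 0.088 centred, 0.132 after quantile normalization, 0.103 on log2(RPKM + 1), 0.135 over non-members, 0.091 as a mean, and 0.104 to 0.119 without 1 WT sample. In KO3 it was 0.105 as reported, 0.090 above a mean of 2, 0.136 centred, 0.153 after quantile normalization, 0.088 on log2(RPKM + 1), 0.060 as a mean, and 0.086 to 0.103 without 1 WT sample. In KO4 it was -0.111 as reported, -0.091 with no filter, -0.063 centred, -0.069 after quantile normalization, -0.088 on log2(RPKM + 1), -0.128 as a mean, and -0.122 to -0.099 without 1 WT sample. With the edges of the stretch moved by 1 bin, an alternative chosen after seeing the data, its median was -0.343 (150 to 160 Mb) and -0.408 (150 to 170 Mb) in KO1, -0.250 (155 to 165 Mb), -0.140 (145 to 165 Mb) and -0.108 (150 to 170 Mb) in KO2, 0.116 (150 to 170 Mb) in KO3, and 0.065 (155 to 165 Mb), 0.169 (150 to 160 Mb) and 0.096 (150 to 170 Mb) in KO4. For KO against WT, limma called 46 genes as reported, 75 on log2(RPKM + 1), 114 after quantile normalization (56.1% higher, against 41.3%), and 0 to 236 with 1 library left out; members called lower numbered 0 to 1. The correlations of same-numbered clones and WT samples were 0.05, 0.08 and -0.01, and the WT samples that best matched KO1, KO2 and KO3 were WT1, WT2 and WT1. Such small values cannot decide whether libraries shared a batch, since clones differ much more than WT samples. The limma fit with a replicate block, which pairs libraries by number, called 0 of the 11154 tested genes, while 1206 had an unadjusted p under 0.05. The numbers name clones, so this block stands for no stated pairing. Without 1 WT sample, the genes called ranged over 3085 to 5833 in KO1, 1667 to 4889 in KO2, 1662 to 4889 in KO3 and 1159 to 3976 in KO4, the lowest always without WT2. Members called lower ranged over 30 to 39, 4 to 13, 2 to 11 and 6 to 15, and members called higher over 0 to 0, 2 to 16, 2 to 16 and 0 to 9. In KO2, 6 members were lower after quantile normalization, and 7 (centred) or 6 (no variance trend) were higher. In KO4, 1601 genes were called above a mean of 2, and 8 members were higher with no filter and also after quantile normalization. In KO2, 5 members lay beyond 0.5 of their neighbours, against 13 from the arm, and 8 to 15 without 1 WT sample. Of 116 departures of named members, 15 changed sign against neighbours, and 0 of the 37 beyond 0.5 did. The causes were not tested. Depth is unknown and sets no limit that could be stated.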
